A study of Mus musculus with 16 samples.

Results

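ATRX-dependent heterochromatin nanodomains are short stretches of the genome that carried H3K9me3 in WT mouse embryonic stem cells and were not called in Atrx KO cells. Those in the introns of long genes are described here. A region was a member if it shared at least 1 base with the record of a protein-coding gene of 200 kb or longer in GENCODE M1, on mm9 chromosomes 1 to 19. It also had to have no base in any exon record and none within 1 kb of any gene start. Of the 13113 regions in the deposited list, 1345 met this rule. The list was made from ChIP-seq with an antibody to H3K9me3 in the WT line wt26 and in the Atrx KO lines KO1-40 and KO1-45, all grown with LIF on gelatine. Each genotype had 2 libraries of H3K9me3, 2 of histone H3, 2 of IgG and 2 of input, 16 libraries in all. The KO libraries are not assigned to either KO line in the labels, and with 1 WT line the line and the genotype cannot be told apart. The list pools the libraries into positions alone, so the depth behind a region is unknown and no replicate error exists for any value.

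ATRX is a chromatin remodeller that, with DAXX, places the histone variant H3.3 in heterochromatin. H3K9me3 is the histone mark of constitutive heterochromatin, set by enzymes such as SETDB1 and SUV39H and bound by HP1. Long genes consist almost wholly of intron and many of them encode adhesion proteins, receptors and channels of neurons. Their introns hold copies of transposable elements, and H3K9me3 is known in embryonic stem cells for silencing such copies.

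Sequence from these introns came in very different kinds, and 8 stretches were read from mm9 in the direction of transcription of the host gene. The first pair shows single-copy DNA, in which every 50-base word of the whole region occurs once in the genome. Cdh13 had the most members of any host, and the stretch is the middle of its widest member (chr8:120828049-120828288, mm9, plus strand). Tns3 held the widest member of all (chr11:8475000-8475239, mm9, minus strand). Both are in lower case because nothing in them was marked.
Cdh13: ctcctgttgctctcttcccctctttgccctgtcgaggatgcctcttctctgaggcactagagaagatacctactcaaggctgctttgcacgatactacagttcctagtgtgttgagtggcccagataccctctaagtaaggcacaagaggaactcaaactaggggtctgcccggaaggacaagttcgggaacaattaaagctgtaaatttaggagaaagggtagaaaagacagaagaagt
Tns3: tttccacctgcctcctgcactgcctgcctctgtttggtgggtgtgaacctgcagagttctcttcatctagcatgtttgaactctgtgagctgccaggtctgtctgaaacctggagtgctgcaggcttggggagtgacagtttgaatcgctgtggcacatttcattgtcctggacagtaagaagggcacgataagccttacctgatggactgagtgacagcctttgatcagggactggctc

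The next set shows the opposite kind. Kcnh7, which encodes a voltage-gated potassium channel, held the shortest window with 3 members, 3535 bases in its intron 2. The middle 160 bases of the first and the last of them are given on the minus strand of mm9, at chr2:62915912-62916071 and chr2:62913029-62913188. Capitals mark bases covered by 24-base words that occur at least 100 times in mm9, and here they mark every base.
Kcnh7 first region: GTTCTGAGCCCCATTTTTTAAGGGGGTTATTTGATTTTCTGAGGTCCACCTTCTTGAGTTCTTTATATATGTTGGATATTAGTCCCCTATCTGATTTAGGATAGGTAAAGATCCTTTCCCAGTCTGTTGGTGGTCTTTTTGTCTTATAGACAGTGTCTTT
Kcnh7 last region: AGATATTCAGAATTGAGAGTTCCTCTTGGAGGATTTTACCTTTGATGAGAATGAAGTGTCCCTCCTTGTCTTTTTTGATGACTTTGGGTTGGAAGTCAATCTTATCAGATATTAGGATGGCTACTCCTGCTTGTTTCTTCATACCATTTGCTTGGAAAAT

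A last set shows multi-copy words that different hosts share, each within the member that illustrates it, with the shared 24-base word in capitals and its flanks in lower case. All are from the minus strand of mm9, at chr8:17191408-17191527 in Csmd1, chr1:38711064-38711183 in Aff3, chr11:113816497-113816616 in Sdk2 and chr7:138905881-138906000 in Fgfr2. In Csmd1 the capitals are the reverse complement of word 1 as spelled further on, because the word lies antisense to the gene there.
word 1 in Csmd1: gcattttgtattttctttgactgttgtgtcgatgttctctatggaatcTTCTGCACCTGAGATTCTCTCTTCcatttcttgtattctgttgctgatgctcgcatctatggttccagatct
word 2 in Aff3: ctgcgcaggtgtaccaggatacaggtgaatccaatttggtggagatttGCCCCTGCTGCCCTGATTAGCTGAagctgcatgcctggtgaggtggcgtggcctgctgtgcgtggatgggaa
word 4 in Sdk2: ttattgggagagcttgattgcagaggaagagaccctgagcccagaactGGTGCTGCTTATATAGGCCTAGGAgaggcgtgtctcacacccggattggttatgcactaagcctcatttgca
word 5 in Fgfr2: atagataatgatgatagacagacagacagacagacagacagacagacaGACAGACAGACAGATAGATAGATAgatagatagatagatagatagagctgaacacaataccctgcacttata
The middle of the stretch in Fgfr2 is a tandem array of 4-base units.

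The members made up 11.3% of the 11899 regions on chromosomes 1 to 19 (95% Wilson interval 10.7 to 11.9%). Another 1454 regions lay in introns of shorter protein-coding genes under the same conditions and 8126 were intergenic, while 974 fell in none of these classes. Long genes numbered 909, which was 4.24% of the 21418 protein-coding genes on these chromosomes, yet they took up 15.9% of the sequenced bases. The rule left 366.9 Mb of their introns in which a member could lie, called allowed sequence from here on.

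Allowed intron sequence of long genes held 3.67 members per Mb, or 0.00367 per kb (exact Poisson 95% interval 3.47 to 3.87 per Mb). Introns of shorter genes held 3.01 regions per Mb (2.86 to 3.17) and intergenic sequence held 5.95 (5.82 to 6.08). Long introns were thus between the other classes, at 0.616 of the intergenic density (exact binomial interval 0.581 to 0.653) and 1.22 times that of shorter-gene introns (1.13 to 1.31). These intervals, like all others given, cover counting error only. Members covered 0.220% of the allowed bases. Their median width was 439 bp, with quartiles of 238 and 782 bp, against 401.5 bp in shorter-gene introns and 400.5 bp between genes. Widths ran from 1 bp in Accn1 to 7448 bp in Tns3, whose product, a tensin, links integrins to actin. The next widest were 5931 bp in intron 1 of Ankfn1 and 4746 bp in intron 12 of Gria1, which encodes an AMPA receptor subunit. All 3 lay on chromosome 11.

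The lower density than between genes held on every autosome, but the density itself varied. It was lowest on chromosome 6, at 2.23 members per Mb (1.71 to 2.86), and highest on chromosome 11, at 6.94 (5.73 to 8.33), around a median of 3.35. The ratio to intergenic sequence of the same chromosome was below 1 on 19 of 19 autosomes, and its interval lay below 1 on all of them. It ranged from 0.432 on chromosome 6 to 0.838 on chromosome 1 (0.702 to 0.995). Chromosomes dense between genes were also dense in long introns. Across the 19 autosomes, which share the same libraries and list, Spearman's rho between the densities in the 2 kinds of sequence was 0.696 and Pearson's r was 0.869, given as a description.

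Chromosomes 1, 8 and 11 stood apart, and they were singled out after their densities were seen. They held 396 members, 29.4% of all, on 19.2% of the allowed bases. Their density was 5.63 per Mb against 3.20 on the other autosomes, a ratio of 1.76 (1.56 to 1.98). The difference was larger for members of single-copy sequence, with every density taken over all allowed sequence, single-copy or not. The single-copy share of the allowed sequence was not counted by chromosome. Members whose 50-base words were unique in mm9 for at least 90% of their positions, called mostly single-copy, had a ratio of 2.21 (1.89 to 2.56), from 3.79 against 1.72 per Mb. The remaining members had a ratio of 1.24 (1.01 to 1.51), from 1.83 against 1.48 per Mb. For intergenic regions the ratio was 1.29 (1.22 to 1.36), with 1.75 for single-copy regions and 0.95 for the rest. Chromosomes 8 and 11 carried it, at 7.61 and 9.19 regions per Mb between genes, while chromosome 1, at 6.20, was below chromosomes 7, 14 and 17, at 6.33, 7.07 and 6.35. Because the 3 chromosomes were picked as the densest in long introns, that choice itself can raise the ratios there above those between genes. The reason for the difference was not tested, since the list has no signal of the WT, KO or input libraries.

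**Figure D1:**
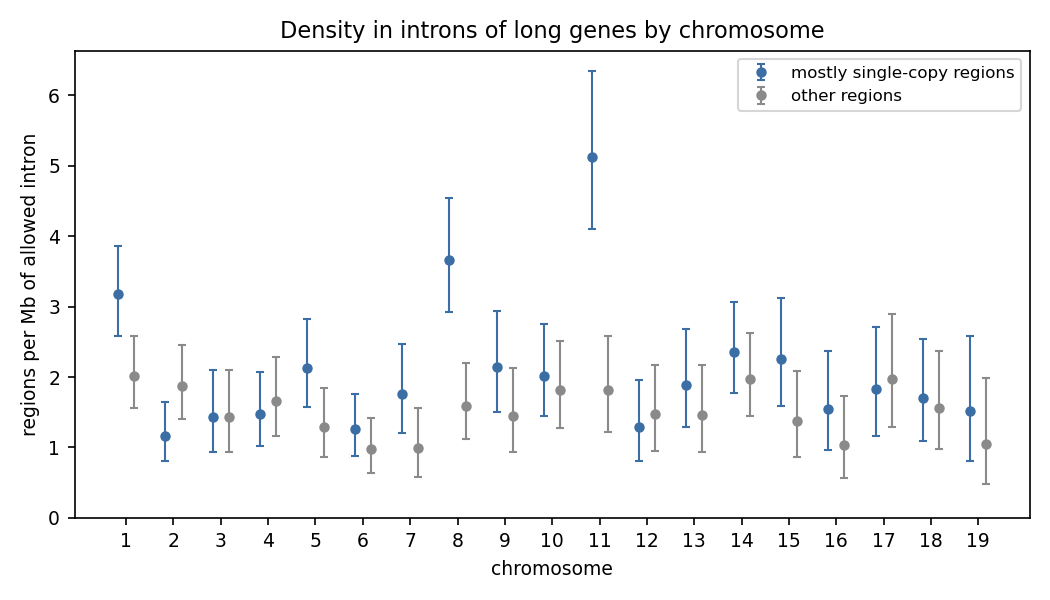
Members per Mb of allowed intron sequence (y axis) on each autosome (x axis), for mostly single-copy members and for the others, with exact Poisson 95% intervals. Single-copy members reached 5.13 per Mb on chromosome 11, 3.67 on chromosome 8 and 3.18 on chromosome 1, while the other members ran from 0.972 on chromosome 6 to 2.02 on chromosome 1.

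The next ratios also divide by all allowed sequence, single-copy or not. Among mostly single-copy members of chromosomes 1, 8 and 11, the density was 0.901 of that of like intergenic regions (0.784 to 1.03). That interval included 1, which need not hold per base of single-copy sequence. On the other autosomes the same ratio was 0.714 (0.648 to 0.785), and the choice of chromosomes by their density in long introns can also raise the first value against this one. For the remaining members the ratios were 0.594 and 0.455. Over all allowed sequence, the deficit against intergenic sequence was larger for the remaining than for the single-copy members in both groups of chromosomes. Of evenly spaced tiles of 600 bp, however, 86.1% were mostly single-copy in long introns and 75.4% between genes. Sequence of the remaining kind was thus scarcer in long introns, and dividing by all allowed sequence can give this order by itself. The order per base of like sequence was not tested and can be the reverse.

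Of the 909 long genes, 587 hosted at least 1 member, or 64.6% (61.4 to 67.6%). The other 322 had none. Most hosts had few, with 254 holding 1, 157 holding 2, 76 holding 3 and 44 holding 4. A group of 56 hosts with at least 5 members each held 373 of them, or 27.7%. Of these hosts 29 were on chromosomes 1, 8 and 11, which have 80, 40 and 45 of the 909 long genes. Those chromosomes were picked for their density in long introns, so hosts with many members tend to lie there. Over all long genes the mean was 1.48 members and the variance 3.40, so the variance was larger than the mean. Part of that spread went with length. Per kb of the gene record, hosts had a median of 0.00443 members (quartiles 0.00308 and 0.00687), with extremes of 0.000501 and 0.0326. Only 4 members touched more than 1 long gene, and each was assigned to the longest. A further overlap, with the record of any other gene, concerned 44 members or 3.27%.

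Longer genes hosted members more often without holding them more densely. The share hosting was 49.3% of 406 genes of 200 to 300 kb, 71.1% of 315 genes of 300 to 500 kb and 82.9% of 140 genes of 500 to 1000 kb. Of the 48 genes of 1000 kb or more, 47 were hosts. Members per Mb of allowed sequence were 3.50, 4.05, 3.72 and 3.12 in these classes. The longest class had an interval of 2.71 to 3.58, below the 3.69 to 4.43 of the 300 to 500 kb class. Across the 909 genes, which are not independent replicates, Spearman's rho between length and number of members was 0.422 and Pearson's r was 0.508.

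**Figure D2:**
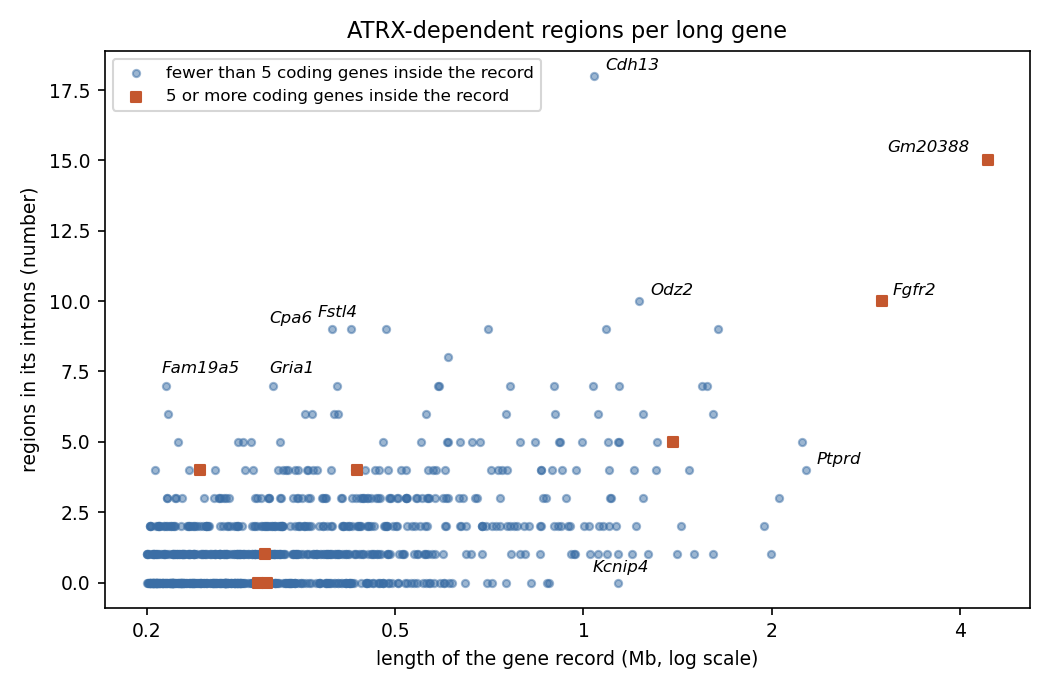
Number of members in the introns of each long gene (y axis) against the length of the gene record in Mb (x axis, log scale), with 1 point for each of the 909 genes. Cdh13 lies highest with 18 members, and squares mark records that wholly contain at least 5 other protein-coding genes, as Gm20388 and Fgfr2 do.

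Cdh13 on chromosome 8 encodes T-cadherin, an adhesion protein held to the membrane by a lipid anchor. It had 18 members in 1041 kb, or 0.0173 per kb (0.0102 to 0.0273), the highest number of any gene. They lay in 9 of its 20 introns, from 5.96 kb to 946.8 kb after the gene start, and 12 came before the midpoint. All 18 were mostly single-copy, with 99.9% of their words occurring once, and their widths ran from 159 to 3991 bp. Gm20388, a gene model on the same chromosome, came next with 15 members. Its record of 4435 kb wholly contains 72 other protein-coding genes and consists mainly of 1 intron of 4384 kb, so the host is a stretch of the annotation more than a single gene. The Fgfr2 record of 3009 kb contains 31 others in the same way, and 4 of its 10 members also lay in another gene record. Per kb they had 0.00338 and 0.00332 members.

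Odz2 on chromosome 11 encodes a teneurin, a transmembrane adhesion protein. Its 10 members all lay past the midpoint, between 55.5 and 90.8% of the way along 1229 kb, and 4 of them were in intron 7. Accn1, also on chromosome 11, encodes a subunit of an acid-sensing ion channel. It had 9 members, 2 of them before the midpoint, and 5 in its intron 1 of 814.3 kb. Nearly all members of this pair of hosts were single-copy, 9 of 10 in Odz2 and 9 of 9 in Accn1. Csmd1 on chromosome 8, a transmembrane protein with CUB and sushi domains, had 9 members in 1643 kb. Its members were of the other kind. Only 2 of the 9 were mostly single-copy, and 28.2% of their words occurred once.

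**Figure D3:**
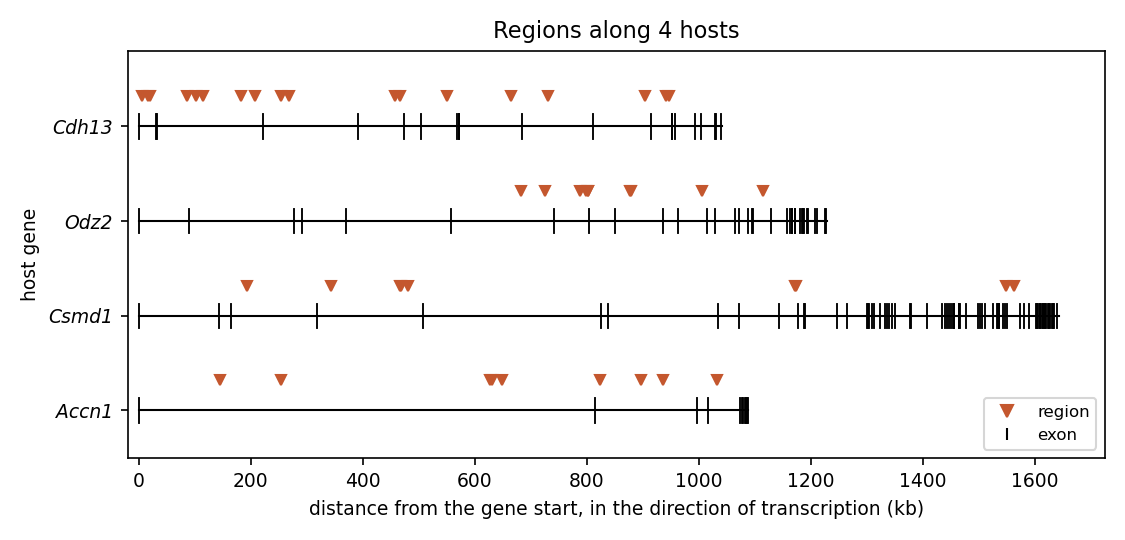
Members (triangles) and exons (vertical lines) along Cdh13, Odz2, Csmd1 and Accn1, drawn as distance from the gene start in the direction of transcription (x axis, kb) for each host (y axis). Members of Cdh13 run from 5.96 to 946.8 kb, while the first member of Odz2 lies 682.4 kb after the gene start.

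Of the 10 hosts with the most members, 8 were on chromosomes 1, 8 and 11, which were picked for their density and have 19.2% of the allowed bases. Together the 10 held 107 members or 7.96%. Fstl4 on chromosome 11, a secreted follistatin-like protein, had 9 members in 423.9 kb, all single-copy, with 6 in intron 3 and 3 in intron 6. Cpa6 on chromosome 1, a carboxypeptidase, had 9 in 395.2 kb with 6 single-copy, the shortest of the hosts with 9. Skint6 on chromosome 4, of a family of immunoglobulin-like proteins, had 9 members in 482.4 kb and none was mostly single-copy. In the 10 hosts as a whole, 76 of the 107 members were mostly single-copy, or 71%, and Cdh13 supplied 18 of the 76. The share was 57.8% of all members and 67.4% of those on chromosomes 1, 8 and 11.

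The order by members per kb, among hosts with at least 3, put short hosts first. Fam19a5, a small secreted protein of the nervous system, led with 7 members in 214.9 kb, or 0.0326 per kb (0.0131 to 0.0671). All 7 lay past the midpoint, from 56.1 to 97.3% along the gene, and 6 were single-copy. Prim2, the large subunit of DNA primase, had 0.0278 per kb with 6 members, 5 of them single-copy. These intervals are wide, because each rests on few regions. Slc10a7, a solute carrier, and Gria1 followed Cpa6 with 0.0223 and 0.0220 per kb. In Gria1, 6 of 7 members lay past the midpoint, and with 10.8 kb they covered more sequence than the members of any other host except Cdh13, at 15.7 kb. Fstl4 had 0.0212 per kb. Gm3358, a gene model on chromosome 14, had 0.0194, and 0 of the 50-base words of its 4 members occurred once. Skint6 had 0.0187 per kb, Stk3, a kinase of the Hippo pathway, had 0.0178 and Tmem232 had 0.0176. Single-copy members made up 2 of 5 in Stk3 and 1 of 5 in Tmem232.

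Some of the longest genes held no more than 5 members. Next in length after Gm20388 and Fgfr2 came Ptprd, a receptor tyrosine phosphatase of 2271 kb with 4 members, Cntnap2, a neurexin-like protein of 2241 kb with 5, and Lrp1b, of the LDL receptor family, with 3 in 2058 kb. Their densities were 0.00176 (0.00048 to 0.00451), 0.00223 (0.000724 to 0.00521) and 0.00146 per kb (0.000301 to 0.00426). Each interval included the 0.00352 per kb over all 909 long genes together, so counting error covers the differences. The longest gene without a member was Kcnip4, which encodes a protein that binds potassium channels. At 1135 kb, its count of 0 allowed up to 0.00325 members per kb. Rasgrf2 (881.6 kb), the protocadherin Pcdh9 (873.2 kb), the transcription factor Npas3 (823.5 kb) and the cell-surface protein Mdga2 (751.0 kb) also had none. Their limits ran from 0.00418 to 0.00491 per kb, above the 0.00352 over all long genes. These genes and Kcnip4 were picked for having no member, so nothing is read from the limits.

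Groups of long genes with a known role were set beside all 909, whose sum of 3.66 members per Mb counts allowed sequence gene by gene. Counts of hosts in a group are to be read beside the 64.6% of all long genes that were hosts and the rise of that share with length, which was not adjusted for. Adhesion genes of synapses and neurites numbered 39, and 34 of them hosted 102 members at 3.10 per Mb (2.53 to 3.76), with a median length of 754.7 kb. Odz2 and Csmd1 led this group, followed by Cntnap5a with 7 members and Cntn5 with 6, which encode a neurexin-like protein and a contactin. Of 15 glutamate receptor genes 13 were hosts, with 27 members at 3.26 per Mb (2.15 to 4.75). Gria1 had 7 of them, the metabotropic receptor genes Grm8 and Grm7 had 3 and 2, and the delta receptor gene Grid1 had 2. Calcium, potassium and related channels had 18 hosts among 24 genes, with 44 members at 3.87 per Mb (2.81 to 5.20). Ryr3, which encodes a calcium release channel, had 7 members. Kcnb2, a voltage-gated potassium channel, had 6, Cacna1c, a voltage-gated calcium channel, had 5 and Kcnh7 had 3. The intervals of these 3 groups included the value over all long genes.

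Cadherins and protocadherins had 35 members at 4.82 per Mb (3.36 to 6.70), and 6 of 12 genes were hosts. Cdh13 alone supplied 18 of the 35, and without it the group had 2.72 per Mb (1.59 to 4.36). Pcdh15 and Cdh23, which form the tip links of hair cells, had 7 and 4, and Cdh18 had 4. All 16 genes of common fragile sites, where long genes break under replication stress, were hosts, with 69 members at 3.46 per Mb (2.69 to 4.38), or 2.70 without Cdh13. Besides Cdh13, these included Ctnna3 with 7 members, which encodes an alpha-catenin, Fhit with 6 and Park2, which encodes a ubiquitin ligase, with 5. Their median length was 1216 kb, and at that length nearly every gene was a host.

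Receptor tyrosine phosphatases, kinases and their ligands had 13 hosts among 17 genes and 43 members at 2.95 per Mb (2.14 to 3.98). The Fgfr2 record held 10, 4 of them also in another gene record, the phosphatase genes Ptprt and Ptprn2 held 5 each and Ptprd held 4. Phosphodiesterases and protein kinases had 20 members in 13 of 17 genes, at 2.49 per Mb (1.52 to 3.85). The most were 3 in the kinase gene Mast4 and 3 in the phosphodiesterase gene Pde4b, with 2 each in Camk1d and Pde11a. Transcription and chromatin regulators had 38 members in 18 of 32 genes, at 2.74 per Mb (1.94 to 3.76). The nuclear receptor gene Esrrg held 8 of these, 7 of them single-copy, and Auts2, the methyltransferase gene Smyd3 and the zinc finger gene Tshz2 held 3 each. With all their genes, none of the 8 groups had an interval that lay apart from 3.66. Without the gene with the most members, each group had a lower value, between 2.26 and 3.43 per Mb. The interval then lay below 3.66 in 4 of the 8, at 2.34 to 3.56 for adhesion genes, 2.01 to 3.55 for fragile sites, 1.33 to 3.65 for phosphodiesterases and kinases and 1.53 to 3.23 for transcription and chromatin regulators. These genes were left out for their counts while the value over all long genes still held them, so the groups cannot be set apart from it in this way.

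Along the host, members followed the allowed sequence closely. When each long gene was cut into 10 equal bins from start to end, the share of members in a bin ran from 8.40% in the ninth bin to 11.7% in the second. Allowed bases made up 10.0% and 10.2% there, and in each of the 10 bins the interval of the members' share included that of the bases. Before the midpoint lay 702 members, 52.2% (49.5 to 54.9%), where 50.5% of the bases lie. Odz2 and Fam19a5, whose members all lay past the midpoint, were single hosts. Other hosts went the opposite way. All members of Ctnna3, from 1.64 to 35.2% along the gene, and of Cacna1c, from 5.61 to 39.2%, lay before the midpoint. How uneven hosts were in general was not tested.

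**Figure D4:**
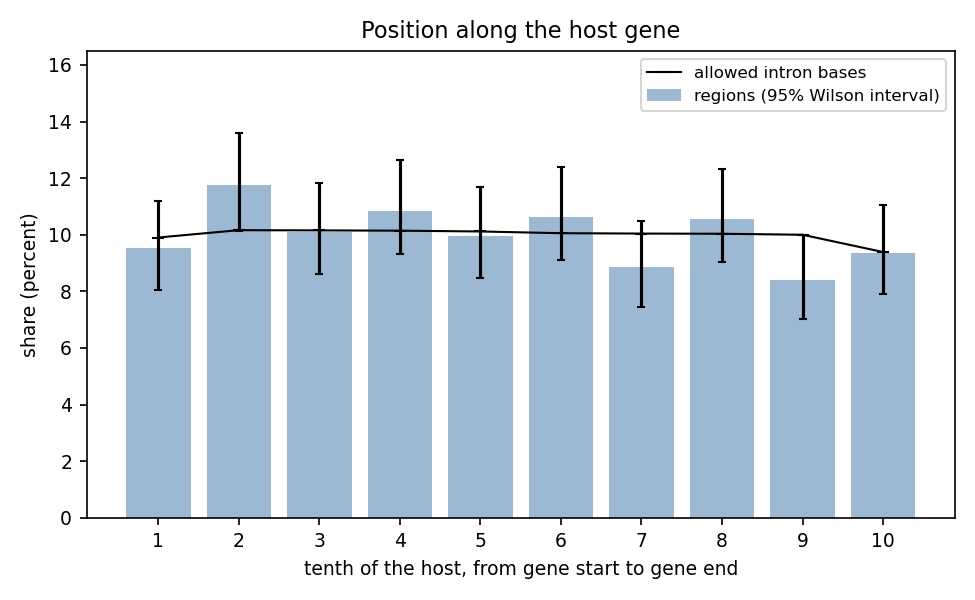
Share of members (bars, y axis in percent, with Wilson 95% intervals) and of allowed intron bases (line) in each of 10 equal bins of the host, numbered from gene start to gene end (x axis). Members range from 8.40% to 11.7% and the line stays between 9.39% and 10.2%.

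By intron, 246 members or 18.3% were in intron 1 (16.3 to 20.4%), where 16.8% of the allowed bases lie. Intron 2 held 13.5% of members and 12.3% of the bases, and intron 3 held 10.1% and 11%. The last intron held 79 members or 5.87%, with 4.97% of the bases, and all 4 intervals included the share of bases. The longest intron of each host held 500 members, 37.2% (34.6 to 39.8%), slightly above its 34.3% of the bases. Distance to exons differed little in the middle of its range. Their median distance to the nearest exon record was 12.5 kb, against 11.8 kb for 29430 tiles of 600 bp spaced evenly through the same introns. Within 1 kb of an exon lay 7.58% of members (6.29 to 9.12%) and 9.40% of tiles, and at 100 kb or more 2.75% and 3.29%. The rule itself left out 68 regions for bases in an exon, and members differ in width while tiles do not. Nothing is therefore read from the shares near exons. The farthest was 320.2 kb from any exon, in the single intron of Hs6st3, whose product adds sulfate to heparan sulfate.

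Neighbours in the same host were counted without a value for an even spread, so the counts are a description. Another member of the same host lay within 100 kb of 748 members or 55.6% (52.9 to 58.2%), within 10 kb of 246 or 18.3% and within 1 kb of 57 or 4.24%. The 3 regions of Kcnh7, from 502 to 802 bp wide, lay between 21.7 and 22.3% of the way along the gene and more than 100 kb from an exon. They were the only members of that gene, and 2.71% of their words occurred once.

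Some genes and regions lay close to the limits of the rule. The shortest hosts were Pcbp3 with 200030 bases, Plcxd3 with 200062 and Glis1 with 200470, each with 1 member. Morc1 with 199668 bases and 1 region, Bckdhb with 199089 and 2, and Svil with 198759 and 2 fell just short. Of 1429 regions that touched a long gene, 84 were left out, 68 for bases in an exon and 16 for lying within 1 kb of a gene start alone. Nearest to an exon among members were regions in Abca13, at 5 bases, and in Ldb2, at 45 bases. Nearest to a gene start were those in Accn1, at 1002 bases, and in Tmem232, at 1227 bases. On the other side, a region in Pde3a was left out for 1 exon base and one in Enox1 for 10. Regions in Reln and Tmeff2 were left out at 993 and 988 bases from a gene start.

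The sequence of members was less unique than that of the introns at large. Of the 50-base words in members, the length of the reads, 79.4% occurred once in mm9, against 92.8% in the tiles. By region, 777 members or 57.8% (55.1 to 60.4%) were mostly single-copy, with at least 90% of such words, against 86.1% of tiles. Another 397 or 29.5% were between 10 and 90%, and 171 or 12.7% had at most 10%, a class that made up 3.13% of tiles. A 24-base word with at least 100 copies, tandem repeats included, was present in 881 members or 65.5% (62.9 to 68.0%). In windows of the same length as the tiles, centred on members, it was 68.0% (65.4 to 70.4%), against 41.9% of tiles. Members thus held multi-copy words more often than their introns, while most were still made of sequence that reads can place. Intergenic regions had 71.7% of words occurring once, and their tiles had 86.8%.

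Width and composition differed between these kinds. Mostly single-copy members had a median width of 499 bp and a G+C content of 45.7%, and those with at most 10% had 308 bp and 42.6%. Among members of 1000 bp and over, 66.1% (59.6 to 72%) were mostly single-copy, against 53.1% (47.0 to 59.1%) of those under 200 bp. In windows of 600 bp around members, G+C was 44.0% and CpG 10.6 per kb, against 41.2% and 7.64 per kb in tiles, so these windows were richer in both than the introns at large. Position did not separate the kinds, with 50.8% (47.3 to 54.3%) of single-copy members before the midpoint and 54.4% (46.9 to 61.7%) of those with at most 10%.

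The telomere repeat unit TTAGGG, searched on both strands, occurred in 282 members or 21.0%. At equal length it was in 22.7% of windows around members (20.5 to 25.0%) and 21.2% of tiles, a difference not detectable at this number of regions. A G-quadruplex pattern of 4 runs of at least 3 G with loops of 1 to 7 bases, on either strand, occurred in 93 members or 6.91%. At equal length the windows around members had it less often than tiles, 6.47% (5.27 to 7.91%) against 9.13% (8.81 to 9.46%). Among the 171 members with at most 10% single-copy words it was found in 2.

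The 7 multi-copy words were picked in turn, each for lying in the most members that no earlier word had covered. Words with a long stretch of a tandem unit of up to 6 bases were passed over. Their presence in members is thus a description, and 161 members or 12% held at least 1 of the 7. Word 1, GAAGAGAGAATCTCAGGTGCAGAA, occurred 16183 times in mm9 and in 36 members, the most of the 7. Of its 1573 copies in allowed sequence of long genes, 2.29% lay in a member (1.66 to 3.15%). Word 3, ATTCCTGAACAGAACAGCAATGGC, and word 6, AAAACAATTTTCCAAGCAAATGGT, had like numbers, with 12954 and 12849 copies in mm9 and 1.70% and 1.67% of their allowed copies in members. Most copies of these abundant words were thus not in a member.

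Since the words were picked for lying in many members, the fewer copies a word has, the larger its share in members tends to be, and nothing is read from these shares. Word 4, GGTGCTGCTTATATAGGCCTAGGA, had 1398 copies in mm9 and 84 in allowed sequence, and 21 of these, or 25.0% (17 to 35.2%), lay in members. Word 2, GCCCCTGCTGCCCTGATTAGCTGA, had 2407 and 184, with 25 or 13.6% (9.38 to 19.3%), and word 7, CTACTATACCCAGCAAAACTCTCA, had 2176 and 213, with 20 or 9.39% (6.16 to 14.1%). Word 5, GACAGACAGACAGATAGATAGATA, is not a repeat of a single unit, because it runs from GACA units into GATA units. It had 730 and 101, and 22 copies in 21 members made 21.8% (14.8 to 30.8%).

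Orientation towards the host was counted for the same words, and differences from the copies at large were not tested. Word 1 read in the direction of transcription in 37.0% of its allowed copies (34.6 to 39.4%) and in 25.0% of those in members (13.8 to 41.1%), 9 of 36. Word 4 did so in 76.2% of its allowed copies and in 76.2% of those in members, 16 of 21. For these words and the other 5, the interval over members included the share over all allowed copies, and with 20 to 36 copies each these intervals were wide.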

How the data were processed

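H3K9me3 ChIP-seq was done in WT and Atrx KO mouse embryonic stem cells, with H3, IgG and input libraries beside it. The authors mapped 50-bp single-end reads to mm9 with Bowtie2, kept uniquely mappable reads with up to 2 mismatches, called peaks with MACS2 at a broad cutoff of 0.1 and handled the lists with BEDTools, whose versions are not given. Regions called in WT and absent in KO were kept. How replicates were joined is not stated. The deposited list holds 3 columns, the positions of the regions in bp on mm9 with their chromosome. No column (0 of 3) refers to a single library. There are no replicate values, so no test was made. Starts are given counted from 1.

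Gene, exon and gene start records came from GENCODE M1 and sequence from mm9. Intergenic regions lay in no gene record and not within 1 kb of a gene start. Allowed sequence is where the rule permits a member. Shares carry 95% Wilson intervals, densities exact Poisson intervals and ratios of densities exact conditional binomial intervals. Each member was placed along its host by its middle. Tiles of 600 bp were taken as 1 in 20 along long introns, 1 in 40 along shorter-gene introns and 1 in 80 between genes. For words of 24, 36 and 50 bases, exact copies on both strands of mm9 were counted. The counts and searches were checked on simulated data. Versions were Python 3.11.15, numba 0.67.0, numpy 2.4.6, matplotlib 3.10.9 and scipy 1.17.1.

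The members and the gene lists were chosen with earlier results of these data known. The lists were adhesion at synapses and neurites, glutamate receptors, channels, cadherins and protocadherins, common fragile sites, receptor tyrosine phosphatases and kinases, phosphodiesterases and protein kinases, and transcription and chromatin regulators. Genes named are from the 10 hosts with the most members, the 10 with the most per kb among those with at least 3, the 5 longest, the 5 longest without a member, those at the limits of the rule and up to 4 of each list. Regions named are the 3 widest, those of the shortest window with 3 members, those at the limits and 1 for each of words 1, 2, 4 and 5. The widest member of Cdh13, the narrowest member, Hs6st3 and the split by chromosomes 1, 8 and 11 were picked out after the values were seen.

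Alternatives varied the minimum length of the host, the exon records, the distance to gene starts, the overlap, the joining and width of regions, the way position was taken, the denominator and the length and copy number of words. Some were chosen after seeing the data. They left out hosts with at least 5 other coding genes inside, members not mostly single-copy, or chromosomes 1, 8 and 11, searched the motifs in 600 bp windows, split members by single-copy share, and left out the gene with the most members from each list. Repeat annotation was not used here, and repeat families were not analysed.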

Additional observations from a re-analysis of the deposited data

How the results depend on the processing

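Across 20 results, 101 values were computed under alternatives, 67 of them planned and 34 chosen after seeing the data, and 70 stayed within the counting interval of the value reported or, for the number of members, within 1.5 times. The density relative to intergenic sequence was below 1 in 11 of 11 alternatives, from 0.565 to 0.776. The share before the midpoint of the host stayed between 50.1 and 53.7% and that in intron 1 between 17.5 and 19%.

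The other 31 moved. With hosts of at least 100 kb, 16.3% of autosomal regions were members and 45.1% of genes were hosts. With 300 kb these were 8.55% and 76.9%. With 500 kb they were 4.6% and 86.7%, with 547 members at 3.47 per Mb. Without regions under 200 bp, the density was 2.96 per Mb, 58.5% of genes were hosts, the median width was 539 bp and 80.0% of words occurred once. These shifts follow from fewer or more genes and regions being counted. Counted as base pairs, members covered 2196 bp per Mb, 0.662 of the intergenic value. Per Mb of unique 50-base words the density was 3.95 and the ratio 0.576. The mean width was 599.2 bp. With 36-base words 74.3% occurred once. Words of at least 10 copies occurred in 75.7% of members and those of at least 1000 in 46.5%.

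Among the alternatives chosen after seeing the data, mostly single-copy members numbered 777, or 13.2% of like autosomal regions. They had 2.12 per Mb and 0.776 of the intergenic density, both over all allowed sequence, single-copy or not. They lay in 44.7% of long genes, with a median width of 499 bp. Without chromosomes 1, 8 and 11, members were 10.3% of autosomal regions at 3.20 per Mb, 0.565 of the intergenic density, and 77.0% of words occurred once. The cause was not tested. Without Cdh13, cadherins and protocadherins had 2.72 per Mb, which follows from leaving out 18 of 35 members.

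No paired analysis was possible because WT and KO replicates, though numbered alike, are pooled in the list. Leaving out each replicate and the replicate block were therefore not run. The depth of single regions is unknown, which limits every statement to positions and sequence. Host genes are records of 1 annotation, and merged records such as Gm20388 count as hosts. Only exact copies of words were counted, whereas reads were mapped with mismatches allowed.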
